A study of Mus musculus with 6 samples.

Results

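The imprinted growth network genes are 10 rows of the deposited gene table, out of 56980 genes in all: the maternally expressed *H19*, *Meg3*, *Grb10* and *Zim1*, and the paternally expressed *Igf2*, *Dlk1*, *Peg3*, *Plagl1*, *Mest* and *Ndn*. The genes were selected by name, with the values of this same comparison known. Their differences between groups are therefore a description. No p-value is given for them, and the thresholds they passed are not read as support. RNA-Seq was performed on BM MSCs, the stromal cells of bone marrow (BM) that can give rise to osteoblasts and adipocytes. By the paper's methods, flushed marrow was cultured for 7 days before the MSCs were isolated. The cells came from OVX mice, whose ovaries were removed at 8 weeks of age to model estrogen-deficient bone loss, and whose own gut microbiota was depleted with antibiotics. These recipients then received fecal microbiota transplantation (FMT) for 8 weeks. The donors were also OVX mice, sedentary for the TranspCtrl group (n = 3) and exercised for 8 weeks for the TranspExer group (n = 3). Surgery, antibiotics and gavage were thus common to both groups, and the donors' exercise was the difference under study. No genetic alteration is named in the labels or methods, and the labels do not say that each sample came from a separate mouse.

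An imprinted gene is read mainly from the copy inherited from one parent, because a nearby DNA region was methylated in the egg or in the sperm. Paternally expressed genes such as *Igf2* tend to favour growth of the embryo, whereas maternally expressed genes such as *H19*, *Grb10* and *Cdkn1c* tend to restrain it, and many of them are silenced together in most tissues after birth. At the *H19* and *Igf2* locus, CTCF binds the unmethylated maternal control region and keeps *Igf2* away from enhancers that *H19* then uses, while on the paternal copy the methylated region leaves these enhancers to *Igf2*. In bone marrow, IGF2 is a growth factor for stromal and hematopoietic cells, and DLK1 is a known brake on adipocyte formation. Counts per gene do not tell the parental copies apart, so allele use and methylation were not measured here.

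*H19* and *Igf2* lie on the same strand of chromosome 7, with starts 88.7 kb apart, and each transcript carries a microRNA hairpin (coordinates on GRCm38, the assembly also called mm10, which the submitters' processing notes name). *H19* spans chr7:142575529-142578143 and *Igf2* spans chr7:142650766-142666816, both on the minus strand. The mature microRNAs from the 2 hairpins are shown because they are the products these host transcripts can give besides IGF2 itself, with the seed, bases 2 to 8, in capitals (RefSeq, GRCm38.p6, 5′ to 3′).
mmu-miR-675-5p, within *H19*: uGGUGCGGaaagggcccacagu
mmu-miR-675-3p, within *H19*: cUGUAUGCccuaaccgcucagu
mmu-miR-483-5p, within *Igf2*: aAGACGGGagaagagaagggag
mmu-miR-483-3p, within *Igf2*: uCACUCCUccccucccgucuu
The 4 seeds differ from one another, and each occurs in 1 of the 1738 mature mouse microRNAs of that table. The rows of *Mir675* and *Mir483* held no count in any library, which for an mRNA library says nothing of the mature microRNAs.

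*Igf2* and *Grb10* have several start sites, which the counts per gene add together. The 120 bases before each RefSeq start are shown for these genes, as the letters any factor acting at those starts would meet, with GC boxes (GGGCGG on either strand) in capitals (minus strand, GRCm38.p6, 5′ to 3′, from the most upstream start of each gene).
*Igf2*, chr7:142666817-142666936: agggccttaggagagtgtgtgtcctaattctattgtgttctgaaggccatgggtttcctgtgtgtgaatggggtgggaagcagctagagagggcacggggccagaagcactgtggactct
*Igf2*, chr7:142661272-142661391: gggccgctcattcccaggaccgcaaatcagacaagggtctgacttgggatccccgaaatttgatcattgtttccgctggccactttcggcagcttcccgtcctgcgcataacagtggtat
*Igf2*, chr7:142658805-142658924: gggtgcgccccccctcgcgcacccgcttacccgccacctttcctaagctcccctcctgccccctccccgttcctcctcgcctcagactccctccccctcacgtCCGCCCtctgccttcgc
*Igf2*, chr7:142657497-142657616: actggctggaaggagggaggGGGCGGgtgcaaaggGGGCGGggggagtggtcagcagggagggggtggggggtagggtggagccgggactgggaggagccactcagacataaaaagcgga
*Grb10*, chr11:12037421-12037540: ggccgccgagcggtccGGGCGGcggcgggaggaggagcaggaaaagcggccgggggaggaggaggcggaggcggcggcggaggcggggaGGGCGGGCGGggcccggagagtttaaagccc
*Grb10*, chr11:12027972-12028091: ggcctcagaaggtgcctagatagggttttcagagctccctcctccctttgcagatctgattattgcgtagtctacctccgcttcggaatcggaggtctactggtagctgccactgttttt
The starts of *Igf2* differed in their letters: within 250 bases before to 50 after the start there were 2, 14, 24 and 7 CpG dinucleotides in the order shown, against a median of 7 over the promoters of all genes. For *Grb10* the upstream start had 45 CpG and the downstream start 9. A GC box was found in 35.66% of the 32851 promoters of the table, so its presence here is ordinary. PLAGL1, the zinc finger factor among the members, is known to bind GGGGGGCCCC, which was looked for on both strands and occurred in 0.09% of all promoters and in none of the 16 promoters found for 9 members. *H19* had no entry in that table.

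Total counts were between 17647682 and 21319228 per library. The values are the authors' estimated counts per gene, scaled here to CPM (counts scaled to the size of each library) with edgeR's TMM factors, and 3 counts, taken as the floor, equalled at most 0.174 CPM (counting error only). On log2 CPM over the 15190 tested genes, TranspExer libraries lay 42.8 to 43.9 apart and TranspCtrl replicates 2 and 3 lay 37.0 apart, whereas distances within the TranspCtrl group reached 62.8 with TranspCtrl replicate 1. Distances between groups were larger, at 82.7 to 110. Stromal markers in the TranspCtrl group ranged from *Lepr* at 10.2 ± 1.08 CPM to *Col1a1* at 8042 ± 3018 CPM (SD, n = 3). Between these were *Pdgfra* at 112 ± 3.96 CPM and *Cxcl12* at 1396 ± 69.3 CPM. Hematopoietic markers in that group ranged from *Ly6g* at 4.40 ± 0.448 CPM to *Lyz2* at 6412 ± 2336 CPM. Among them were *Csf1r* at 882 ± 33.0 CPM and *Ighm* at 2687 ± 1170 CPM. The cultures, for which no sorting is described, were thus not pure by these markers.

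*H19*, an untranslated maternal RNA, was the member with the largest difference between groups. It measured 175, 193 and 200 CPM in TranspCtrl replicates 1, 2 and 3, and 15.4, 17.3 and 10.9 CPM in TranspExer replicates 1, 2 and 3. The groups were far apart, since even the lowest TranspCtrl library exceeded the highest TranspExer library many times over. The means were 189 ± 13.1 CPM and 14.5 ± 3.30 CPM (SD, n = 3 each), 13.02-fold lower in the TranspExer group, with a log2 fold change of -3.71 (SE 0.17). This ranked as the 54th lowest log2 fold change among the 15190 tested genes. The counts behind it, between 3578 and 4306 in TranspCtrl and between 219 and 298 in TranspExer libraries, were well above the floor in every library.

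*Igf2*, the paternally expressed growth factor next to *H19*, was also lower in all TranspExer libraries. It measured 19.7, 30.5 and 30.1 CPM in TranspCtrl replicates 1, 2 and 3, and 3.66, 3.84 and 3.78 CPM in TranspExer replicates 1, 2 and 3. TranspCtrl replicate 1 was the lowest of its group, at 0.649 of the mean of the other two, whereas the TranspExer libraries were nearly equal. The means were 26.8 ± 6.14 CPM and 3.76 ± 0.088 CPM (SD, n = 3 each), 7.12-fold lower in the TranspExer group, with a log2 fold change of -2.83 (SE 0.19, the 130th lowest). A read-through gene, *Gm49394*, overlaps *Igf2* and took at most 6.71% of their joint count, in TranspExer replicate 1, and the antisense *Igf2os* never exceeded 0.549% of the *Igf2* count.

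*Grb10*, which encodes a maternally expressed adaptor that restrains insulin and IGF1 receptor signalling, had a smaller difference at a much higher level. It measured 347, 486 and 457 CPM in TranspCtrl replicates 1, 2 and 3, and 256, 264 and 275 CPM in TranspExer replicates 1, 2 and 3. All TranspExer libraries were below all TranspCtrl libraries. The means were 430 ± 73.2 CPM and 265 ± 9.53 CPM (SD, n = 3 each), 1.62-fold lower, with a log2 fold change of -0.70 (SE 0.13), which is within the 2-fold threshold for DEGs. In absolute terms the difference of *Grb10*, -165 CPM, was close in size to the -175 CPM of *H19*.

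**Figure D1:**
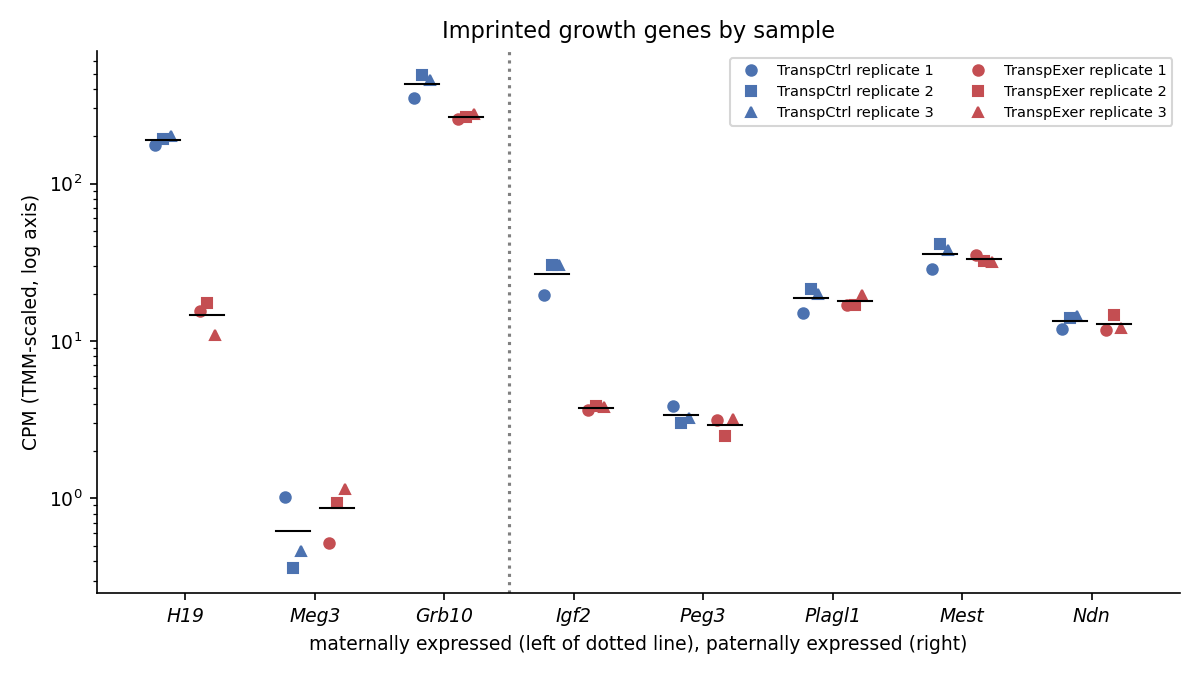
CPM on a log axis for the 8 members that passed the low-count filter, with 1 symbol per library (blue TranspCtrl, red TranspExer) and the group mean as a black line. *H19*, *Igf2* and *Grb10* had no overlap between groups, with *H19* at 175 to 200 CPM against 10.9 to 17.3 CPM, and the libraries of the other 5 members overlapped.

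The remaining paternally expressed members that could be tested had libraries that overlapped between groups. *Mest*, which encodes a hydrolase-like membrane protein and is known to mark expanding fat tissue, measured 28.8, 41.3 and 37.6 CPM in TranspCtrl and 35.1, 32.3 and 31.9 CPM in TranspExer replicates 1, 2 and 3. *Plagl1* measured 15.1, 21.3 and 19.95 CPM in TranspCtrl and 16.9, 17.0 and 19.7 CPM in TranspExer replicates. *Ndn*, which encodes the growth suppressor necdin, measured 11.9, 13.9 and 14.5 CPM in TranspCtrl and 11.7, 14.7 and 12.02 CPM in TranspExer replicates. For *Mest* and *Plagl1*, both the lowest and the highest library belonged to the TranspCtrl group. *Peg3*, a zinc finger gene, was low throughout, at 3.86, 3.03 and 3.26 CPM in TranspCtrl and 3.14, 2.50 and 3.18 CPM in TranspExer replicates. The log2 fold changes were -0.12 (SE 0.13) for *Mest*, -0.07 (SE 0.14) for *Plagl1*, -0.07 (SE 0.13) for *Ndn* and -0.20 (SE 0.19) for *Peg3*. Each is within about 1 SE of 0. Without TranspCtrl replicate 2, the value of *Plagl1* was 0.03.

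The 3 remaining members had few counts in every library. *Meg3*, the maternal noncoding RNA of the cluster it shares with *Dlk1* on chromosome 12, had 21, 7 and 10 counts in TranspCtrl and 10, 16 and 23 counts in TranspExer replicates 1, 2 and 3. The libraries overlapped, and the log2 fold change was 0.48 (SE 0.47). With 1 library left out it went from 0.21, without TranspExer replicate 3, to 1.05, without TranspCtrl replicate 1, the highest library of its group. *Dlk1*, with its start 88.2 kb away, had 2, 1 and 0 counts in TranspCtrl and 2, 4 and 3 counts in TranspExer replicates. *Zim1*, a maternal zinc finger gene whose start is 34 kb from that of *Peg3*, had 0, 0 and 2 counts in TranspCtrl and no count in TranspExer replicates. These last genes did not pass the low-count filter and have no fold change, and 5 of the 6 libraries for *Dlk1* and all 6 for *Zim1* were at or under the floor of 3 counts. At so few counts the size of a difference in either gene could not be measured, though the *Dlk1* libraries did not overlap between groups.

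Of the 10 members, 8 were tested, and 2 of these, *H19* and *Igf2*, were lower by both DEG thresholds of the study's methods, which are 0.05 for the adjusted p-value and 2 for the fold change. Over all 15190 tested genes, 802 (5.28%) were lower and 531 (3.5%) were higher in TranspExer by the same thresholds. By adjusted p-value alone, 3 members were lower, against 15.5% of all genes lower and 16.6% higher. The same 3 members had no overlap between groups in the lower direction, against 25.1% of all genes lower without overlap and 27.2% higher. None of the 8 tested members was higher by any of these rules. The untested *Dlk1* was higher without overlap, at 0 to 0.0977 CPM against 0.105 to 0.233 CPM, on the few counts given above. Because the members were chosen on this contrast, nothing is read from these shares. The median log2 fold change was -0.16 over the 8 members and -0.02 over all tested genes. Of the 3 tested members without overlap, *H19* and *Grb10* are maternally and *Igf2* is paternally expressed.

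Per kilobase of transcript, the order of the members differed between groups. In TranspCtrl, *Grb10* and *H19* were highest, at 84.99 and 72.2 ± 5.00 CPM per kilobase (means, SD over 3 libraries for *H19*), and their libraries overlapped. *Mest* followed at 13.5, *Igf2* at 5.67, *Ndn* at 3.63 and *Plagl1* at 3.57 CPM per kilobase, and among these neighbours only *Ndn* and *Plagl1* overlapped. In TranspExer, *Grb10* stood alone at 52.4 CPM per kilobase, above *Mest* at 12.4, *H19* at 5.54, *Ndn* at 3.46, *Plagl1* at 3.39 and *Igf2* at 0.796 CPM per kilobase. *H19* had thus moved from beside *Grb10* to below *Mest*, and *Igf2* from above to below *Ndn* and *Plagl1*. *Peg3* and *Meg3* came next in both groups, at 0.376 and 0.0424 in TranspCtrl and 0.327 and 0.0595 CPM per kilobase in TranspExer.

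*H19* and *Igf2* were not lower by the same factor. The log2 ratio of *H19* to *Igf2* counts within a library was 3.15, 2.66 and 2.73 in TranspCtrl and 2.07, 2.17 and 1.53 in TranspExer replicates 1, 2 and 3. Every TranspExer ratio was below every TranspCtrl ratio, with TranspExer replicate 3 the lowest. The means were 2.85 ± 0.27 and 1.92 ± 0.35 (SD, n = 3 each), a difference of -0.92 on the log2 scale that does not depend on how libraries are scaled. It was between -1.05 and -0.72 with any 1 library left out. Both genes are members, so this ratio has no test.

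**Figure D2:**
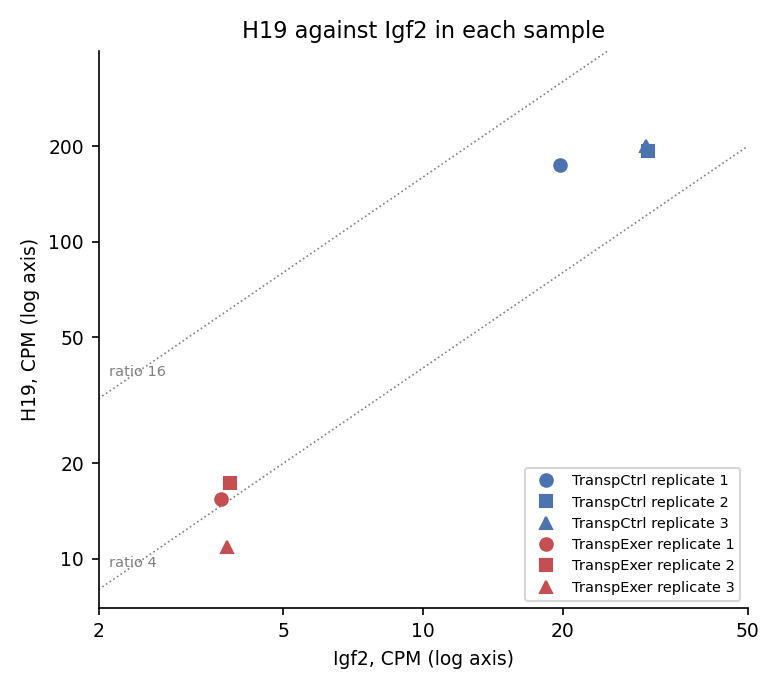
*H19* against *Igf2* in each of the 6 libraries, both as CPM on log axes, with dotted lines where *H19* is 4 or 16 times *Igf2*. The TranspCtrl libraries lie at upper right and between the lines, and the TranspExer libraries at lower left, at log2 ratios of 1.53 to 2.17.

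Around *H19*, the differences of other genes were smaller and of mixed direction. Within 1000 kb of the *H19* start (a window and gene names chosen after the values were seen), 21 genes other than *H19* and *Igf2* were tested. By both thresholds, *Prr33* with a log2 fold change of -1.67 (SE 0.36, adjusted p = 0.0105, edgeR quasi-likelihood test) and *Muc2* with -1.41 (SE 0.35, adjusted p = 0.0196, edgeR) fell, and *Cdkn1c* rose. By adjusted p alone, 4 of the 21 fell and 5 rose, against 15.5% and 16.6% of all tested genes, and the median of the 21 was 0.02. Of those that rose, *Slc22a18* lost its call with DESeq2 (adjusted p = 0.0716) and without any 1 of the TranspExer replicates, among other settings. *Tspan32* lost its call without TranspExer replicate 2 (adjusted p = 0.0581, edgeR). *Prr33*, at means of 2.12 and 0.664 CPM, and *Muc2*, at 0.997 and 0.367 CPM, were weakly expressed. *Mrpl23* and *Gm33148*, the tested genes nearest to *H19* on either side, had log2 fold changes of -0.35 (SE 0.30) and 0.09 (SE 0.35), and neither passed the test.

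**Figure D3:**
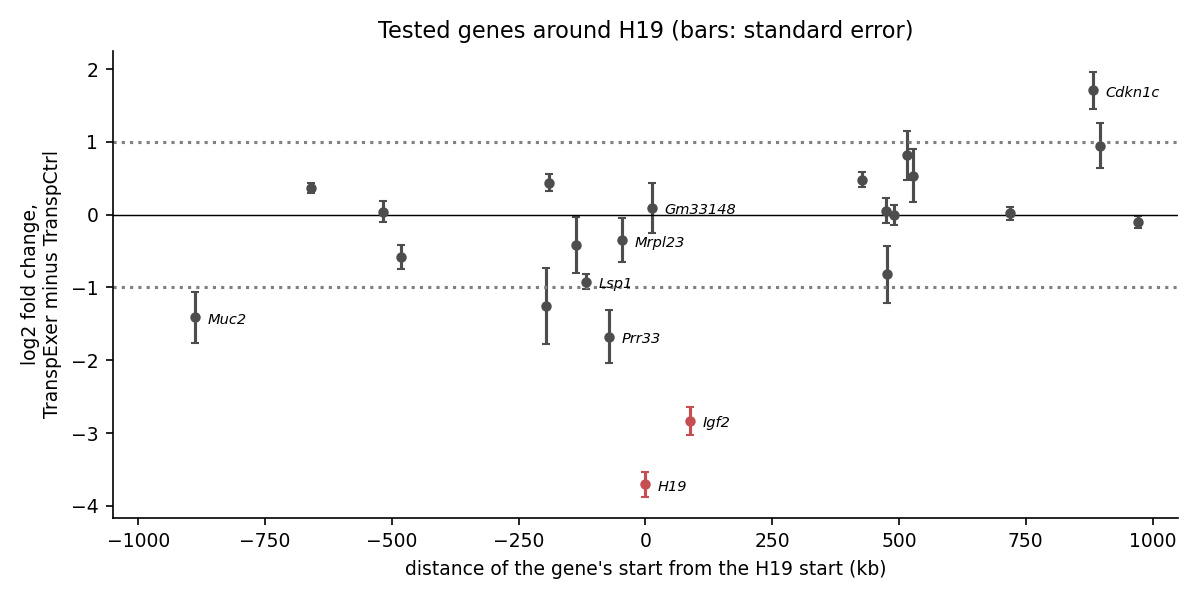
Log2 fold change (TranspExer minus TranspCtrl, bars show the SE) of the tested genes against the distance of their start from the *H19* start in kb. *H19* and *Igf2* (red) are the lowest points, and the 21 other genes range from -1.67 to 1.71.

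The partners of these genes in the imprinted network were tested as well. Of the 5 further network genes, 3 rose and 2 fell by adjusted p-value, and 1 in each direction also passed the fold threshold. *Cdkn1c*, the maternally expressed cell cycle inhibitor p57, measured 0.586, 0.719 and 0.883 CPM in TranspCtrl and 2.67, 2.15 and 2.38 CPM in TranspExer replicates 1, 2 and 3, and rose with a log2 fold change of 1.71 (SE 0.25, adjusted p = 0.00208, edgeR quasi-likelihood test). *Dcn*, which encodes the matrix proteoglycan decorin and is imprinted in placenta, measured 12.9, 14.3 and 14.2 CPM in TranspCtrl and 4.03, 3.89 and 4.27 CPM in TranspExer replicates, and fell with a log2 fold change of -1.76 (SE 0.12, adjusted p = 6.69e-05, edgeR). For both genes the groups did not overlap. *Igf2r*, the receptor that carries IGF2 to lysosomes for degradation, rose from 183, 244 and 242 CPM to 314, 316 and 367 CPM, a log2 fold change of 0.58 (adjusted p = 0.0125, edgeR). *Gnas*, which encodes a G protein alpha subunit, rose by 0.58 on the log2 scale (adjusted p = 0.0472, edgeR), and *Sgce*, a sarcoglycan gene, fell by 0.76 (adjusted p = 0.0077, edgeR). The call of *Igf2r* was lost without TranspExer replicate 3 (adjusted p = 0.0561), and that of *Gnas* without any 1 of the TranspExer replicates (adjusted p = 0.112 to 0.131) and with upper-quartile scaling (adjusted p = 0.0503).

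Among 10 tested genes of IGF2 receptors, downstream signalling and binding of *Igf2* mRNA, 4 rose and 2 fell by adjusted p-value, and 3 of these 6 calls were the RNA-binding *Igf2bp1*, *Igf2bp2* and *Igf2bp3*. With 1 library left out, 3 to 6 rose and 1 to 2 fell. The log2 fold changes of *Igf1r*, the receptor through which IGF2 signals, and *Insr*, which also binds IGF2, were 0.37 (adjusted p = 0.156, edgeR) and 0.30 (adjusted p = 0.0538, edgeR), and neither passed the test, though *Insr* did without TranspCtrl replicate 1 (0.21, adjusted p = 0.0242, edgeR). By both thresholds the calls were 2 RNA-binding proteins known to bind *Igf2* and *H19* transcripts, both weakly expressed. *Igf2bp1* measured 0.195, 0.257 and 0.279 CPM in TranspCtrl and 0.732, 0.581 and 1.14 CPM in TranspExer replicates, and rose by 1.73 on the log2 scale (adjusted p = 0.0150, edgeR). *Igf2bp3* measured 0.879, 0.975 and 0.698 CPM in TranspCtrl and 0.366, 0.291 and 0.298 CPM in TranspExer replicates, and fell by 1.39 on the log2 scale (adjusted p = 0.0154, edgeR). Neither call held with every library left out: *Igf2bp1* had an adjusted p of 0.0647 without TranspExer replicate 3, and *Igf2bp3* of 0.0529 to 0.0633 without TranspCtrl replicate 2 or TranspExer replicate 2 or 3.

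Among 60 other imprinted genes in the table, 43 were tested, and 11 rose and 7 fell by adjusted p-value, with a median log2 fold change of 0.11. These counts depended on single libraries: 5, 6 and 7 rose without TranspExer replicate 2, 3 and 1, and 4 fell without TranspCtrl replicate 3. With upper-quartile scaling 7 rose and 7 fell. By both thresholds 4 rose and 2 fell. The genes listed as maternally expressed gave 9 higher and 4 lower calls of 27 tested by adjusted p-value. Those listed as paternally expressed gave 2 higher and 3 lower of 16. Over all tested genes, 16.6% were higher and 15.5% lower by adjusted p-value, and 3.5% and 5.28% by both thresholds. The difference between the 2 lists was not tested. Besides *Cdkn1c*, the genes that rose past both thresholds were *Tfpi2*, a protease inhibitor (log2 fold change 1.42, adjusted p = 0.000146, edgeR), *Peg10*, a retrotransposon-derived gene (1.23, adjusted p = 0.00725, edgeR), and *Slc22a3*, an organic cation transporter (1.74, adjusted p = 0.0101, edgeR). *Tfpi2* measured 8.01 to 9.49 CPM in TranspCtrl and 22.2 to 26.4 CPM in TranspExer libraries. *Peg10* was lowest in TranspCtrl replicate 1, at 8.89 CPM against 18.7 and 16.04 CPM in replicates 2 and 3, and without that library its log2 fold change was 0.98, under the fold threshold. Besides *Dcn*, *Calcr*, the calcitonin receptor gene, fell (adjusted p = 0.00482, edgeR), with 26, 10 and 23 counts in TranspCtrl and 2, 2 and 3 counts in TranspExer replicates, so that its fold is set by the floor and is not given. Without TranspCtrl replicate 3 it did not pass the low-count filter, which left 1 gene lower by both thresholds.

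**Figure D4:**
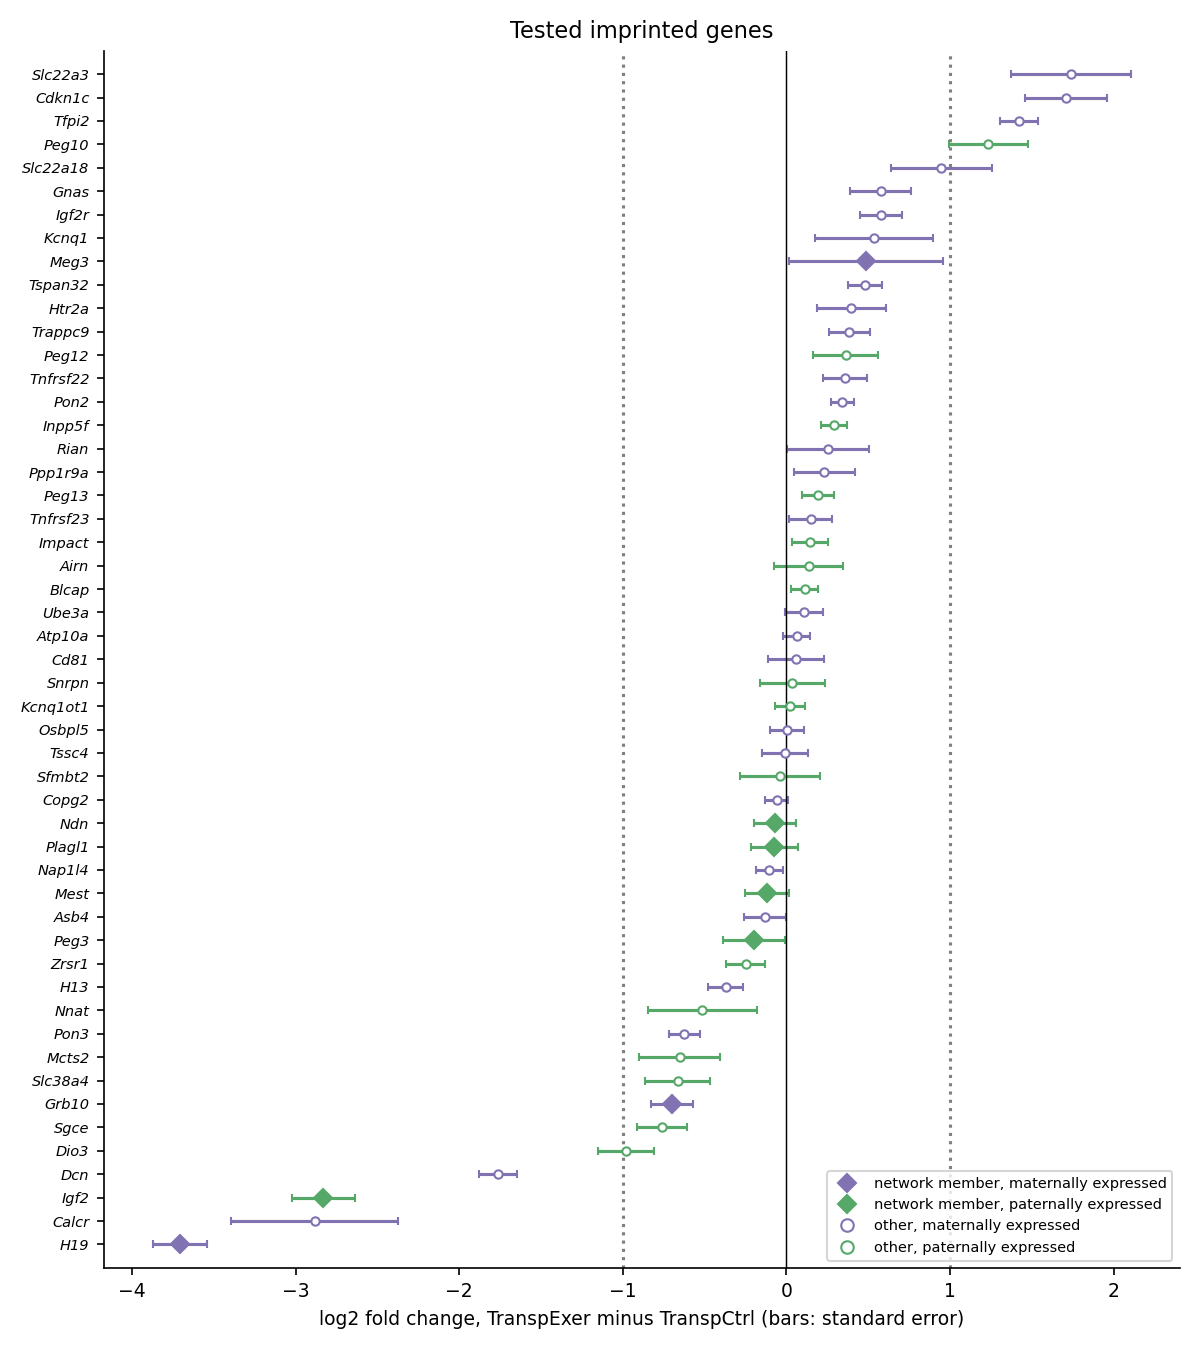
Log2 fold change (TranspExer minus TranspCtrl, bars show the SE) of the 8 tested members (filled diamonds) and 43 other tested imprinted genes (open circles), purple for maternally and green for paternally expressed genes, with dotted lines at the 2-fold threshold. *H19* is lowest at -3.71, followed by the non-member *Calcr*, whose fold is set by the floor, and by *Igf2* at -2.83. Most of the other genes lie between -1 and 1.

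A further list held genes for the upkeep or removal of imprint methylation. Among them were *Ctcf*, *Dnmt1*, *Trim28* and the *Tet* genes, whose products oxidise methylated cytosine. Of 17 listed, 15 were tested, and 0 passed both thresholds by edgeR or by DESeq2. Over all tested genes 5.28% were lower and 3.5% higher by both thresholds, so with 15 genes nothing is read from 0 calls. An unadjusted p under 0.05 was found for 7 by edgeR and 7 by DESeq2. By adjusted p-value alone 5 rose and 2 fell, within log2 fold changes of -0.74 to 0.60, against 16.6% and 15.5% of all tested genes. *Dnmt1* (0.45, adjusted p = 0.00693, edgeR) and *Trim28* (0.56, adjusted p = 0.021, edgeR) were among those that rose, and *Ctcf* (0.11, adjusted p = 0.3455, edgeR) did not pass. The call of *Trim28* was lost without any 1 of the TranspExer replicates. Without TranspExer replicate 2 or 3, 3 rose and 0 fell, and without TranspExer replicate 1, 4 rose and 0 fell. The 2 that fell were *Tet1* (adjusted p = 0.0498, edgeR) and *Zfp445* (log2 fold change -0.43, adjusted p = 0.0242, edgeR). *Tet1* was also lost with DESeq2 (adjusted p = 0.068), and with TranspCtrl replicate 2 or 3 left out 1 gene fell. More genes fell with scaling by library size alone, at 4, and without TranspCtrl replicate 1, at 3.

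Cell type markers differed between the groups alongside the members. In a bulk library, fewer cells of a type and less RNA per cell cannot be told apart. Of 9 stromal markers, 6 fell and 1 rose by adjusted p-value (edgeR), 2 of them falling past both thresholds, and their median log2 fold change was -0.47. The sum, most of it *Col1a1* and *Col1a2*, overlapped, with levels of 11840 to 19530 CPM in TranspCtrl and 12480 to 13720 CPM in TranspExer libraries. Of 5 tested among 6 osteoblast markers, 3 fell by adjusted p-value (edgeR), 2 of them past both thresholds, with a median of -0.99. *Ibsp*, which encodes bone sialoprotein, fell from 33.2 ± 2.13 to 4.28 ± 0.909 CPM (SD, n = 3 each) and *Sp7*, which encodes osterix, from 18.7 ± 2.86 to 8.90 ± 0.483 CPM, and *Alpl*, alkaline phosphatase, by 0.99 on the log2 scale. *Runx2*, at a log2 fold change of -0.12, and *Spp1*, at -0.09, did not pass the test, and *Bglap* was under the floor in every library. Summed osteoblast markers, nearly all of it *Spp1*, were 2815 to 3519 CPM in TranspCtrl and 2658 to 2912 CPM in TranspExer libraries. Of 7 B and plasma cell markers 6 fell past both thresholds, with sums of 3522 to 5932 CPM against 767 to 815 CPM. All 8 endothelial markers rose by adjusted p-value, 6 of them past both thresholds, with sums of 193 to 240 CPM against 646 to 701 CPM.

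Pericyte and smooth muscle markers summed to 2401 to 2842 CPM in TranspCtrl and 1632 to 1837 CPM in TranspExer. By adjusted p-value 3 of these 6 rose, 2 past both thresholds, and 2 fell, *Acta2* and *Tagln*, which hold most of the sum, and the median was 0.29. Macrophage markers summed to 8065 to 12520 CPM and 6256 to 6799 CPM, but 5 of 7 did not pass the test and the median was 0.07. *Lyz2* fell, from a mean of 6412 to 2910 CPM, and *Cd68* rose, by 0.78 on the log2 scale. Neutrophil markers summed to 1872 to 2816 CPM and 3418 to 3688 CPM, with a median of 0.07. Of these 7, *Mpo* and *Elane*, genes of immature granulocytes, rose past both thresholds, and *Ly6g* fell by adjusted p-value. Adipocyte markers were near 0, at 0.821 to 1.02 CPM and 2.34 to 3.26 CPM, and 3 of 5 were at or under the floor. *Plin1*, which encodes the lipid droplet protein perilipin, rose past both thresholds (adjusted p = 0.00146, edgeR), with 0, 0 and 3 counts in TranspCtrl and 25, 34 and 31 counts in TranspExer replicates. TranspCtrl replicate 1 was the lowest library of its group for *H19*, *Igf2*, *Grb10*, *Mest*, *Plagl1* and *Ndn*, and the highest for *Meg3* and *Peg3*. This library stood at the top of the TranspCtrl range for the B and plasma cell, macrophage, neutrophil, osteoblast, and pericyte and smooth muscle sums. For the stromal and endothelial sums it stood at the bottom. The part of these cell types in the values of *H19*, *Igf2* and *Grb10* was not tested.

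**Figure D5:**
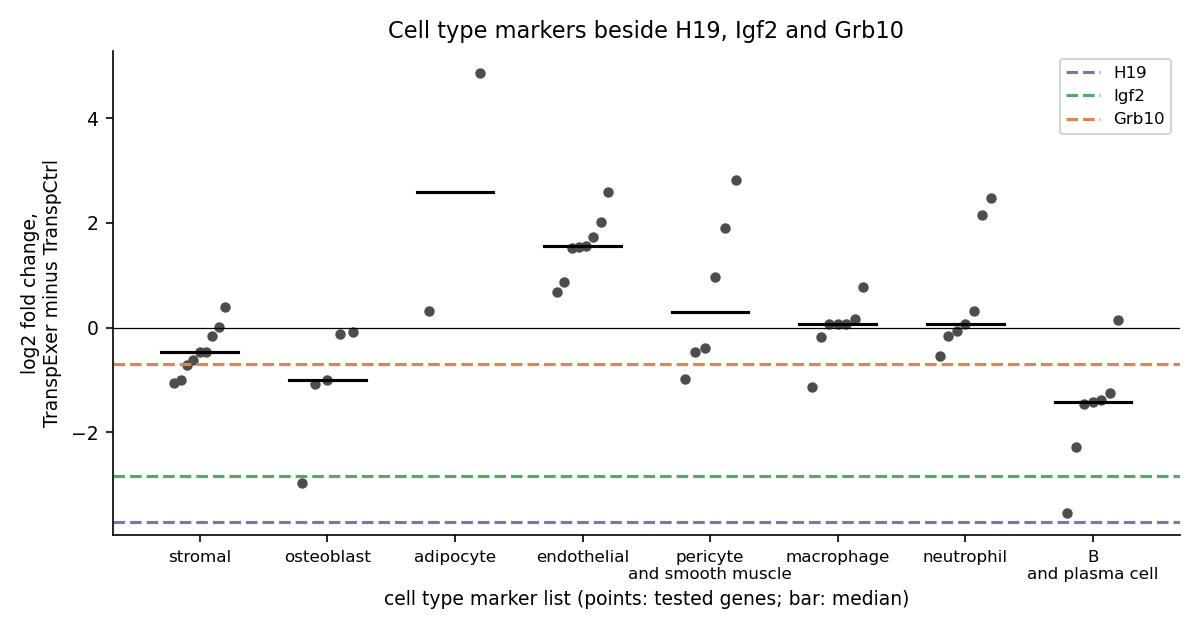
Log2 fold change (TranspExer minus TranspCtrl) of each tested cell type marker, with the median of each list as a bar, and dashed lines for *H19*, *Igf2* and *Grb10*. The stromal markers have their median at -0.47 and the endothelial markers lie above 0, and the dashed lines are at -3.71 for *H19*, -2.83 for *Igf2* and -0.70 for *Grb10*.

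The genes with levels most like those of *H19* and *Igf2* were found by correlation. Over the 6 libraries, with log2 CPM and 9669 genes of at least 10 CPM, the highest Pearson r with *H19* belonged to *Pcolce*, which encodes an enhancer of procollagen processing (r = 0.999), *Tmem123* (r = 0.998) and *Fkbp9* (r = 0.998). For *Igf2* they were *Mmp9*, a gelatinase gene, *Fbn2*, which encodes fibrillin 2, and *Igfbp5*, which encodes an IGF-binding protein (r above 0.999 for each). These points fall into the 2 groups, so any gene with a clear group difference scores high, and 546 genes had r above 0.95 with *H19* and 467 with *Igf2*. *Igfbp5* went from a mean of 722 to 208 CPM and *Mmp9* from 303 to 56.6 CPM.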

How the data were processed

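The RNA-Seq data came from BM MSCs of 3 TranspCtrl and 3 TranspExer samples, grouped by the labels. The values are estimated counts of reads per gene, as deposited by the authors without normalization. The aligner and counting tool are not given in the sources used here, the submitters' notes name mm10, and the labels and the paper name different library kits. Counts were rounded, filtered with filterByExpr, scaled by TMM and tested with edgeR 4.0.16 (quasi-likelihood, R 4.3.3) with Benjamini-Hochberg adjustment over 15190 genes. The thresholds for DEGs were an adjusted p of 0.05 and a fold change of 2 in either direction. P-values measure the spread between these samples, which may be technical. Script checks used simulated data. Positions came from GENCODE M21 (52125 of 56980 identifiers found) and sequences from RefSeq.

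The members and gene lists were chosen with earlier results of these data known. The genes named are the members, 5 network genes, *Igf1r*, *Insr*, list genes past both thresholds (up to 6 per direction) and, for *H19* and *Igf2*, the 3 genes with the highest r. The neighbours of *H19*, the marker genes given as examples, *Igf2bp2*, *Tet1*, *Zfp445*, *Ctcf*, *Dnmt1* and *Trim28* were chosen after their values were seen. Alternatives were DESeq2 1.42.0, 2 other scalings, 2 other filters, unrounded counts, the replicate number as a block and each sample left out.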

Additional observations from a re-analysis of the deposited data

How the results depend on the processing

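Under all 13 alternatives *H19* (-3.86 to -3.54), *Igf2* (-3.01 to -2.73) and *Grb10* (-0.83 to -0.60) kept lower values on the log2 scale. *H19* and *Igf2* were the 2 members past both thresholds in each, which for genes chosen on this contrast is a description only. Scaling by library size alone put the median of all tested genes at -0.10. With 1 library left out, the other imprinted genes past both thresholds numbered 3 to 5 higher and 1 to 3 lower, where the value of 1 came without TranspCtrl replicate 3, when *Calcr* was not tested. DEGs numbered 443 to 603 higher and 671 to 946 lower across alternatives. With the replicate number as a block, *H19* was at -3.72 and *Igf2* at -2.81, with 767 DEGs lower and 519 higher. The calls past both thresholds of the other imprinted genes, *Igf2bp1* and *Igf2bp3* held. Markers and the *H19* neighbours outside the imprinted gene lists were not followed across alternatives. By adjusted p alone under the block, *Insr* passed (0.0301), *Tet1* did not (0.0892), and 5 other imprinted genes fell in place of 7. Deviations of same-numbered libraries correlated at 0.0247, -0.0017 and 0.0416, so they showed no visible shared effect. With 3 libraries per group this cannot settle whether the samples were paired. *Meg3*, *Dlk1* and *Zim1* are limited by depth.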
